A study of Mesocricetus auratus with 36 samples.

Results

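Refractory golden hamsters, which had stopped hibernating while still in the short days and cold that had started their hibernation, were compared with hamsters kept on a long photoperiod. The comparison asked which genes of the tanycyte-rich wall of the hypothalamus had gone back to the long photoperiod level and which had not. It rests on 12 of the study's 36 RNA-seq libraries, chosen by their titles: refractory 1 to 6 and long photoperiod 1 to 6. Refractory 4 was kept out of the main values, which leaves 11 libraries, and results with it are given beside them.

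Each library came from 1 male golden hamster (Mesocricetus auratus), from the ependymal strip along the hypothalamic ventricle cut out by laser capture. Long photoperiod animals had 14 h of light at 22 °C and are 8 months old in the labels, although per the protocol some were sampled when the others changed to short days and some at the end, and which is which is not stated. Refractory animals (8 months old) were held on 10 h of light at 8 °C, ceased to enter torpor of their own accord at about 20 weeks and were taken 2 weeks or more after their last bout. Both groups therefore differed in light, temperature, torpor history and perhaps age, which cannot be told apart. To define the genes that had changed in the first place, the 12 libraries of animals on 10 h of light at 8 °C before any torpor were used: 6 pre-hibernation animals at 4 weeks (4 months old) and 6 late pre-hibernation animals at 8 to 12 weeks (6 months old). They are called the short-day animals here. By the labels they differed from long photoperiod animals in light, temperature and age, which cannot be told apart. From refractory animals they differed in age, time on short days and torpor history, which cannot be told apart either. Interbout and torpor animals (6 each, 6 months old, after 3 torpor cycles, taken 23 h into a warm interval or 13 h into torpor) entered the shared estimate of spread.

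Tanycytes are glial cells that line the lower wall of the third ventricle and reach into the hypothalamus. In seasonal mammals they set the local thyroid hormone supply: the enzyme made from Dio2 produces the active hormone and that made from Dio3 destroys it, under the influence of the melatonin signal of night length. They also take up and convert retinol, the precursor of retinoic acid. A refractory animal is one whose physiology goes back towards its summer state although the days are still short.

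The 6 long photoperiod libraries held 17.99 to 26.85 M counts (M, 1e6) and the 5 refractory libraries 17.14 to 28.54 M. Ribosomal RNA genes took 0.278% to 0.826% of the counts of these 11 libraries and mitochondrial genes 2.02% to 3.21%. Refractory 4 stood apart, with 5.16 M counts, of which ribosomal RNA genes took 41.8% and mitochondrial genes 18.3%. Long photoperiod 5 also stood apart for the genes below: among the 37 genes lower in refractory animals it was the lowest of the 6 long photoperiod libraries for 32, while it was the lowest for 23.1% of all genes tested. The tanycyte markers were present in both groups, and the summed level of 7 of them (Rax, Vim, Nes, Gpr50, Col23a1, Scn7a and Crym) was 1943 to 2265 normalised counts per 1e6 counts (CPM) on long photoperiod and 1668 to 2710 CPM in the 5 refractory libraries. In tissue cut from a mixed region, fewer cells of a type and less RNA per cell cannot be told apart.

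Of 17996 genes tested, 41 differed between the 5 refractory and the 6 long photoperiod animals (0.228%, edgeR quasi-likelihood test, Benjamini-Hochberg adjusted p below 0.05). Of these, 37 genes fell (0.206%) and 4 rose (0.0222%). The split was less one-sided in other fits: 26 higher and 47 lower with neuron and oligodendrocyte marker levels as covariates, 23 and 62 in a fit of the 2 groups alone, and 33 and 134 with limma voom. The lower genes differed by 1.42-fold to 15.1-fold, 27 of them by more than 2-fold, and the median log2 difference over all genes was 0.01. At an unadjusted p below 0.05 there were 1118 genes. The 5 and 6 animals did not overlap for 24 of the 37 lower genes and 3 of the 4 higher ones, against 0.65% and 0.472% of all genes tested. The genes that passed were chosen on these same animals, so less overlap among them follows in part from that choice. With refractory 4 the 6 and 6 animals did not overlap for 14 of the 37 and 2 of the 4, against 0.372% and 0.217% of all genes. With refractory 4 there were 59 such genes of 17926 (0.329%; 14 higher, 45 lower), among them 30 of the 41. Without long photoperiod 5 there were 109 (0.607%; 12 higher, 97 lower), among them all 41. Against long photoperiod 1 to 3 alone 47 genes passed (0.254%), and against long photoperiod 4 to 6 alone 6 passed (0.0325%). The direction was the same for all 41 in both of these subsets, whose animals had also entered the fit that chose the 41. Leaving out refractory 1, 2, 3, 5 or 6 in turn gave 23, 14, 19, 19 and 19 genes, and leaving out long photoperiod 1, 2, 3 or 6 gave 20, 21, 27 and 24. Of the 41 genes 12 passed in each of the 11 fits that left out 1 animal.

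The short-day animals give the scale for this remainder. Before torpor, 1357 genes differed from long photoperiod (7.54%; 753 or 4.18% higher and 604 or 3.36% lower), and 882 differed between refractory and short-day animals (4.9%; 331 or 1.84% higher and 551 or 3.06% lower in refractory). The first of these contrasts shares the long photoperiod libraries with the main comparison and the second shares the refractory ones. The classes that follow are therefore a description. They compare groups of different animals, which by the labels also differed in age, and moved back refers to group levels. A short-day gene had moved back if it differed from the short-day level towards the start and no longer differed from long photoperiod. It had not returned if it still differed from long photoperiod and had not moved towards it, it was part way back if both differences passed, and it was unresolved if neither did. Of the 1357 genes 478 had moved back, 31 had not returned, 3 were part way, 845 were unresolved and 0 had passed beyond the start. For the genes that moved back, the median share of the short-day change that was left was -1.54%, and the 95% interval of the remaining difference held 0 for 426 and lay within 1 log2 unit of 0 for 401. The unresolved genes had a median of 44.5% of their short-day change left, and the interval of 286 of them did not hold 0. Without refractory 1, 2 or 5, fewer genes had moved back (215, 227 and 232), and against long photoperiod 1 to 3 or 4 to 6 alone there were 183 and 258.

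Rises and falls differed in these counts. Of the 753 short-day rises 43.4% had moved back and 0.398% still differed from long photoperiod, while of the 604 falls 25% had moved back and 5.13% still differed. With refractory 4, 305 of 504 rises and 82 of 331 falls had moved back, and 3 rises and 33 falls had not returned. Without long photoperiod 5, 256 rises and 104 falls had moved back, and 9 rises and 69 falls had not returned. With the marker covariates the split of the genes not returned was less one-sided, at 20 rises and 38 falls, and 269 rises and 194 falls had moved back. The rate of return was not itself tested between rises and falls.

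**Figure D1:**
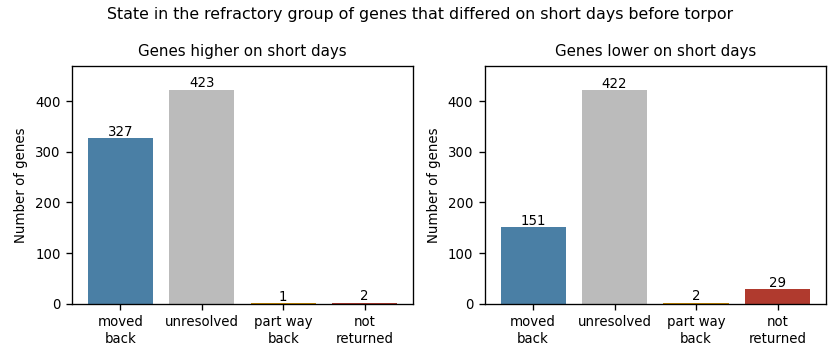
Number of genes (y axis) in each state in the 5 refractory animals, for the 753 genes higher (left) and the 604 genes lower (right) on short days before torpor. In this fit 29 of the 31 genes that had not returned were falls, against 38 of 58 with marker covariates, and 327 of the 478 genes that had moved back were rises.

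Dio2, the deiodinase that activates thyroid hormone, was near its short-day level in refractory animals. It was at 11.6, 48.3 and 70.1 CPM on long photoperiod (lowest, median and highest of 6) and at 3.03, 3.23, 7.73, 4.49 and 5.20 CPM in refractory 1, 2, 3, 5 and 6. All 5 refractory animals were below every long photoperiod animal, as was refractory 4 with 7.45 CPM. The fall was 9.58-fold (log2 -3.26 ± 0.46 SE, edgeR adjusted p = 0.000179). The short-day means were 5.38 and 5.20 CPM at the earlier and the later time, and refractory and short-day animals differed by -0.16 (edgeR adjusted p = 0.853). Interbout animals were at 4.35 to 31.1 CPM (mean 17.7) and torpor animals at 3.07 to 11.8 CPM (mean 7.29). Higher values of Dio2 were thus seen in some animals between the short-day and the refractory groups.

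Dio3, the deiodinase that inactivates thyroid hormone, had moved back. It stood at 3.59, 5.20 and 10.6 CPM on long photoperiod and at 1.69, 9.03, 6.49, 4.91 and 8.69 CPM in the 5 refractory animals, and 4 of the 5 lay inside the long photoperiod range, refractory 1 being below it. Its short-day means were 46.8 and 20.8 CPM. Interbout animals were at 2.31 to 17.1 CPM and torpor animals at 4.17 to 119 CPM. Low values of Dio3 were thus also seen in some animals before the refractory state. The refractory level was -2.35 from the short-day level on the log2 scale (edgeR adjusted p = 0.0363) and 0.08 from long photoperiod, with a 95% interval of -1.35 to 1.5. The return of Dio3 did not pass when refractory 1, 2, 3 or 5 was left out (highest edgeR adjusted p = 0.136, without refractory 1). The refractory animals thus had Dio2 near its short-day level and Dio3 near its long photoperiod level.

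No other thyroid hormone gene tested passed against the long photoperiod level, which does not show that each had reached it. Of 19 members tested, Dio2 alone differed from it (1 lower, 0 higher, against 0.206% and 0.0222% of all genes), with a list median of 0.00 beside 0.01 over all genes. Before torpor 4 members had been higher and 4 lower (4.18% and 3.36% of all genes). Thrb, a thyroid hormone receptor, had moved back from a short-day rise: it was at 27.4, 31.8 and 44.7 CPM on long photoperiod and at 22.0, 47.8, 63.4, 41 and 64.0 CPM in the refractory animals, of which 3 lay above the long photoperiod range. Its move from the short-day level (-0.91, edgeR adjusted p = 0.0209) did not pass without refractory 1, 2 or 5 (highest 0.107). Crym, which binds thyroid hormone in the cytosol, and Hr, a corepressor that answers to the hormone, had moved back from short-day falls, with remaining differences of 0.16 (interval -0.47 to 0.79) and -0.16 (interval -0.52 to 0.20). Crym did not pass against the short-day level without refractory 3, 5 or 6 or with refractory 4 (edgeR adjusted p = 0.0641), nor Hr without refractory 1, 2 or 5 (highest 0.154). Tshr, the receptor of thyrotropin, was unresolved at 73.8 ± 14.4 CPM on long photoperiod (SD, n = 6) and 85.5 ± 26.2 CPM in refractory animals (n = 5), as were the receptor Thra and the transporter Slco1c1. Thra differed from long photoperiod by 0.14 (interval -0.12 to 0.4). Slco1c1 differed by -0.84 (interval -1.63 to -0.05, edgeR adjusted p = 0.74), after a short-day difference of -1.44.

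Retinoid genes were among the 37 lower genes, Lrat and Rarb included. Lrat, which esterifies retinol for storage, had the largest fall of the 37: it was at 12.0, 83.4 and 133 CPM on long photoperiod and at 6.96, 4.40, 4.26, 3.84 and 6.24 CPM in the refractory animals, with no overlap. The difference was 15.1-fold (log2 -3.92 ± 0.44, edgeR adjusted p = 6.21e-06), and the difference from the short-day animals was -0.07. Refractory 4 was at 1.77 CPM. Lrat shares exon bases with Fgg on the opposite strand in the annotation, and counting without strand cannot tell reads of the shared bases apart.

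Rarb, a retinoic acid receptor whose own gene is induced by retinoic acid, was at 9.73, 17.5 and 21.8 CPM on long photoperiod and at 7.66, 6.16, 7.42, 8.83 and 6.42 CPM in refractory animals. These groups did not overlap. The fall was -1.19 ± 0.24 (edgeR adjusted p = 0.0141), and it did not pass without refractory 2, refractory 6 or long photoperiod 2 (highest 0.0645).

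The rest of the retinoid list gave a mixed picture. Of 16 members tested 3 were lower and 0 higher (0.206% and 0.0222% of all genes), with a median of -0.11 beside 0.01 over all genes. Before torpor 7 had been lower and 1 higher (3.36% and 4.18% of all genes). Stra6, the receptor that takes up retinol from its blood carrier, was at 183, 520 and 771 CPM on long photoperiod and at 88.6, 102, 163, 230 and 251 CPM in refractory animals. Only long photoperiod 5 overlapped with the refractory range, and the difference of -1.58 (interval -2.67 to -0.48) did not pass (edgeR adjusted p = 0.403). Rbp4, the blood carrier itself, had a difference of -1.10 (interval -1.66 to -0.55, edgeR adjusted p = 0.0809) and passed with refractory 4 or without long photoperiod 5; Aldh1a3, which makes retinoic acid, had a difference of -1.37 (0.123) and passed without long photoperiod 5.

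Crabp1, which binds retinoic acid in the cell, and Rdh10, which oxidises retinol, had moved back. Crabp1 was at 14.5, 16.9 and 18.1 CPM on long photoperiod and at 20.5, 21, 34.7, 22.9 and 19.9 CPM in refractory animals, which lay above every long photoperiod animal, while its short-day means were 10.5 and 8.78 CPM. The difference of 0.52 from long photoperiod did not pass (edgeR adjusted p = 0.614), and the rise from the short-day level did (1.32, edgeR adjusted p = 3.91e-05). Refractory 4 was at 7.81 CPM. Rdh10 rose from the short-day level by 0.85 (edgeR adjusted p = 0.00397) and was 0.25 from long photoperiod (interval -0.17 to 0.67).

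**Figure D2:**
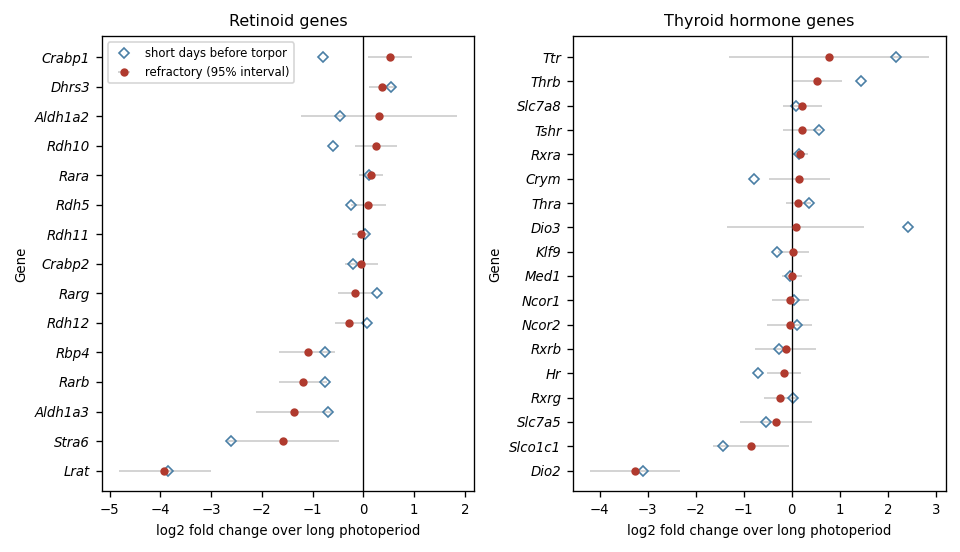
Log2 fold change over long photoperiod (x axis) of tested genes of the retinoid list (left) and the thyroid hormone list (right), in the 5 refractory animals (points with 95% intervals) and in the 12 short-day animals (diamonds). Both contrasts share the 6 long photoperiod animals. Lrat and Dio2 lie at the same place in both, while Dio3 and Crabp1 do not.

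Serpinf1 and Lpl were low in refractory animals in each of the 11 fits that left out an animal. Serpinf1, a secreted factor that restrains vessel growth, was at 18, 67.6 and 104 CPM on long photoperiod and at 8.25, 4.63, 8.26, 12.1 and 11 CPM in refractory animals, with no overlap (log2 -2.86 ± 0.46, edgeR adjusted p = 0.00134). Lpl, the lipase that frees fatty acids from lipoproteins, was at 102, 126 and 186 CPM and at 33.3, 24.5, 32.3, 36 and 48.2 CPM. For Lpl the gap between the groups was wide and long photoperiod 5, at 133 CPM, was not low (-1.92 ± 0.32, edgeR adjusted p = 0.00162).

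Adcy2, Pde7b, Gdpd5 and Hes7 were also low and passed in all 11 fits. Adcy2, an adenylyl cyclase, stood at 58.2, 166 and 211 CPM on long photoperiod and at 37.7, 44.3, 85.6, 56.7 and 65.3 CPM in refractory animals. The overlap came from long photoperiod 5, the next animal up being at 131 CPM (-1.40 ± 0.24, edgeR adjusted p = 0.00235). Pde7b, which breaks cyclic AMP down, was at 38.1, 79.7 and 93.4 CPM and at 26.8, 34.9, 40.5, 36.6 and 36.8 CPM, again with long photoperiod 5 alone in the refractory range (-1.10 ± 0.21, edgeR adjusted p = 0.00815). Gdpd5, a glycerophosphodiester phosphodiesterase, showed the same arrangement, with refractory values of 8.29 to 9.97 CPM, long photoperiod 5 at 8.82 CPM and the other long photoperiod animals at 18.4 CPM or more (-1.15 ± 0.19, edgeR adjusted p = 0.00162). Hes7, a transcriptional repressor of the Hairy family, was at 2.88, 6.96 and 8.13 CPM and at 0.825, 1.58, 2.62, 1.29 and 3.49 CPM (-1.74 ± 0.30, edgeR adjusted p = 0.00298). With refractory 4, at 7.81 CPM, Hes7 no longer passed (0.0518), and it shares exon bases with tRNA genes on the opposite strand. Hes7 was also lower than on short days, by log2 -1.24 to -0.72 with 1 animal left out. That difference passed in the main fit. It was lost without refractory 1, 2 or 5 (highest edgeR adjusted p = 0.188) and with refractory 4 (0.234).

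**Figure D3:**
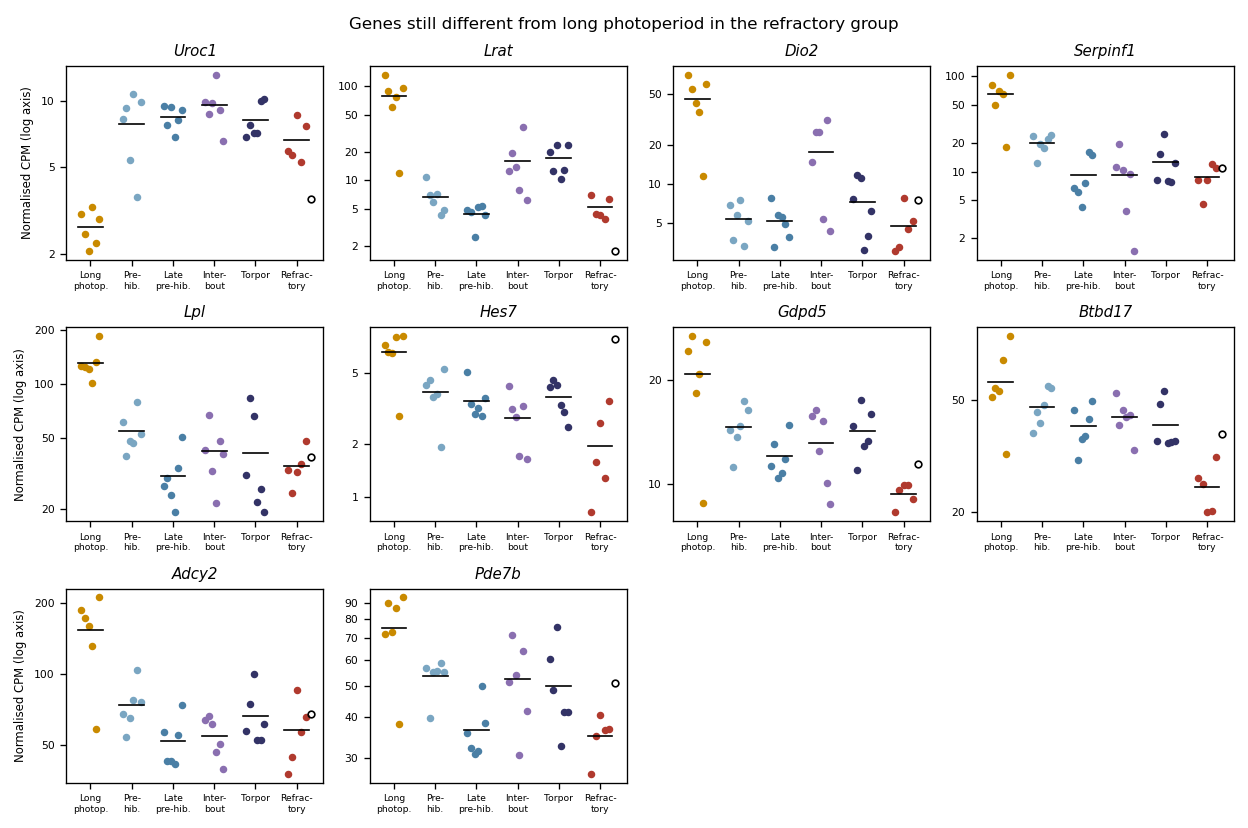
Normalised CPM (log axis) of genes with an informative name that differed between refractory and long photoperiod animals in each fit that left out 1 of the 11 animals; points are animals in 6 groups, lines are group means, and the open circle is refractory 4, which enters no mean. Lrat and Dio2 in refractory animals lie at the short-day level, and the lowest long photoperiod point of most lower genes is long photoperiod 5.

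The other 24 genes of this comparison with an informative name were less stable, each passing in 1 to 10 of those 11 fits, with adjusted p up to 0.182. Dct, an enzyme of melanin synthesis, was at 9.15, 15.8 and 18.8 CPM on long photoperiod and at 2.08, 0.997, 2.67, 1.29 and 1.92 CPM in refractory animals. Its groups were far apart (-3.01 ± 0.57, edgeR adjusted p = 0.0102), and the call was lost without refractory 2 or 5 (highest 0.0527). Interbout animals were at 7.40, 20.8 and 33.7 CPM (lowest, median and highest of 6) and torpor animals at 1.94, 11 and 67.5 CPM, a spread that reached down to the refractory values. Sik1, a kinase induced by cyclic AMP, was at 5.48, 9.39 and 33.6 CPM on long photoperiod and at 3.16 to 4.75 CPM in refractory animals. The highest value, long photoperiod 1, stood far above the next at 11.7 CPM, and without it the difference was -1.14 in place of -1.72 (edgeR adjusted p = 0.174). Sik1 also failed without long photoperiod 2 or any 1 of the refractory animals.

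Ntsr2, Trpv4, Fzd2 and Irs2 had smaller differences. Ntsr2, a neurotensin receptor of astrocytes, was part way back: it stood at 124, 235 and 283 CPM on long photoperiod and at 99.5, 89.2, 123, 109 and 111 CPM in refractory animals, with short-day means of 54.6 and 57.8 CPM. Every refractory animal was below every long photoperiod animal, and 53.8% of the short-day fall was left. The remaining difference (-1.07 ± 0.24, edgeR adjusted p = 0.0344) passed in 2 of the 11 fits, those without long photoperiod 4 or 5 (highest 0.141), while its rise from the short-day level (0.92, edgeR adjusted p = 0.00527) passed in all 11. Trpv4, a cation channel opened by warmth and osmotic swelling, had not returned (-0.81 ± 0.18, edgeR adjusted p = 0.0344), and it too passed only without long photoperiod 4 or 5 (highest 0.152). Fzd2, a Wnt receptor, fell by 1.06 (edgeR adjusted p = 0.0118) and Irs2, an adaptor of the insulin receptor, by 0.91 (edgeR adjusted p = 0.0235). Fzd2 was lost without refractory 1, refractory 5 or long photoperiod 1 (highest 0.0700). Irs2 was lost without refractory 1, 2, 5 or 6 or long photoperiod 1 or 2 (highest 0.109).

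Col6a3, Col11a2 and Slc22a3, a pair of collagens and an organic cation transporter, depended on refractory 4. Col6a3 was at 1.45 to 3.17 CPM in the 5 refractory animals and at 6.25 to 18.9 CPM on long photoperiod, while refractory 4 was at 18.1 CPM. The same library lay above the long photoperiod range for Col11a2, at 16.7 CPM, and inside it for Slc22a3, at 8.16 CPM. With refractory 4 these 3 genes no longer passed (edgeR adjusted p = 0.174, 0.161 and 0.0805). Without it, Col6a3 passed in 2 of the 11 fits, those without long photoperiod 4 or 5 (highest 0.162). Col11a2 was lost without refractory 1, 2, 3 or 6 (highest 0.0733), and Slc22a3 without refractory 2, 3, 5 or 6 or long photoperiod 6 (highest 0.0939). In all, 9 of the 35 genes with an informative name lost their call with refractory 4, and refractory 4 lay inside or above the long photoperiod range for 16 of the 37 lower genes. The part of its ribosomal RNA share in these values was not tested.

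Only 3 genes with an informative name were higher in refractory animals. Uroc1, which breaks down a product of histidine, was at 2.06, 2.68 and 3.28 CPM on long photoperiod and at 5.90, 5.63, 8.62, 5.25 and 7.67 CPM in refractory animals, and refractory 4, at 3.55 CPM, was also above the long photoperiod range. The rise was 2.48-fold (log2 1.31 ± 0.21, edgeR adjusted p = 0.000958) and passed in all 11 fits. Fgl2, a fibrinogen-like protein, was at 1.28, 2.26 and 2.46 CPM and at 3.26, 5.81, 4.71, 6.32 and 7.19 CPM, with no overlap; its 2.57-fold rise (edgeR adjusted p = 0.0116) was lost without refractory 6 (0.0618). Both had risen to these levels on short days, with means of 7.89 and 8.48 CPM for Uroc1 and 5.12 and 5.33 CPM for Fgl2. Fdxacb1 was part way back, at a mean of 11.3 ± 3.41 CPM in refractory (n = 5), 5.65 ± 1.12 CPM on long photoperiod (n = 6) and 18.9 and 16.8 CPM in the short-day groups. Its remaining difference (1.00, edgeR adjusted p = 0.0278) passed without refractory 1 and long photoperiod 4, 5 or 6, each left out in turn, and in no other of the 11 fits (highest 0.112).

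**Figure D4:**
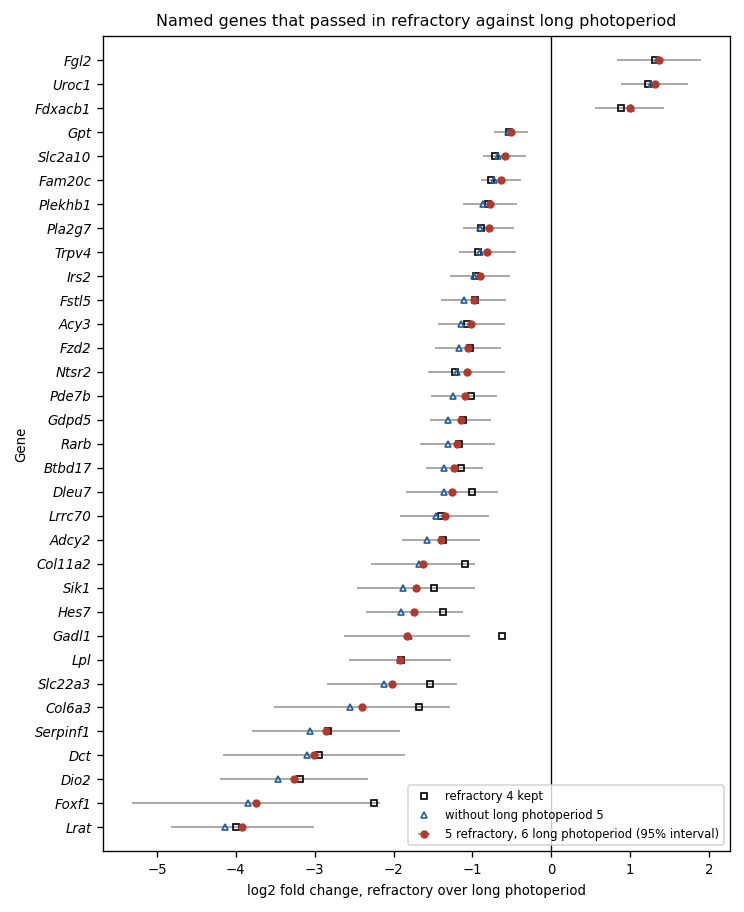
Log2 fold change of refractory over long photoperiod (x axis) for genes with an informative name that passed (y axis), with 95% intervals from 5 and 6 animals; squares keep refractory 4 and triangles leave out long photoperiod 5. Only 3 genes lie above 0, and with refractory 4 the values of Foxf1, Gadl1 and Col6a3 move furthest towards 0.

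Of the 41 genes, 7 had not passed on short days before torpor, among them Btbd17, Gadl1, Slc2a10 and Foxf1. Btbd17 was at 32.3, 54.8 and 84.8 CPM on long photoperiod and at 26.5, 25.3, 20.0, 20.2 and 31.4 CPM in refractory animals, against short-day means of 47.5 and 40.6 CPM. Its groups did not overlap, and it was lower than on long photoperiod (-1.23 ± 0.18, edgeR adjusted p = 0.000179) and than on short days (-0.83, edgeR adjusted p = 0.00182), in all 11 fits. Gadl1, an enzyme that removes carboxyl groups from amino acids, was at 1.11 to 2.12 CPM in the 5 refractory animals, below the long photoperiod range of 4.63 to 6.85 CPM, but refractory 4 was at 22.0 CPM and with it the edgeR adjusted p was 0.660. Without it Gadl1 passed (0.0278), also without long photoperiod 1, 4 or 5, and in no other of the 11 fits (highest 0.0939). Foxf1, a transcription factor, was close to the floor, at 0.00 to 0.0586 CPM against 0.236 to 0.885 CPM, with 1.77 CPM in refractory 4 (edgeR adjusted p = 0.0221, and 0.238 with it). Foxf1 was lost without any 1 of the refractory animals or long photoperiod 1 or 2 (highest 0.0866). Slc2a10, a glucose transporter, differed by -0.59 (edgeR adjusted p = 0.0379) and passed in 3 of the 11 fits, those without refractory 6 or long photoperiod 4 or 5 (highest 0.162).

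Heat shock genes that had risen on short days had moved back towards the long photoperiod level. Of 26 heat shock and chaperone genes tested 6 had risen on short days, against 4.18% of all genes. All 6 (Cryab, Hspb1, Hspb2, Hspb6, Hspb7 and Hsf2) had moved back, against 43.4% of all short-day rises. Their differences from long photoperiod ran from 0.11 to 0.97, none passed, and the 95% intervals of 4 of the 6 lay above 0. Some of the short-day rise may therefore be left. Cryab, which encodes a lens crystallin that holds damaged proteins in solution, was at 231, 324 and 347 CPM on long photoperiod and at 301, 425, 314, 277 and 587 CPM in refractory animals, against short-day means of 1344 and 1272 CPM. The fall from the short-day level was -1.78 (edgeR adjusted p = 1.64e-05), and 0.33 was left (interval -0.15 to 0.81). Hspb1 was at 42.7 ± 7.82 CPM on long photoperiod (n = 6), 46.1 ± 9.77 CPM in refractory animals (n = 5) and 159.8 and 180.3 CPM in the short-day groups. Hspb7 was at 13.6 ± 4.50 CPM in refractory animals (n = 5) against 6.89 ± 0.589 CPM on long photoperiod (n = 6). Its difference of 0.97 did not pass (interval 0.24 to 1.71, edgeR adjusted p = 0.510). The move from the short-day level passed for these 6 genes in all 11 fits and with refractory 4.

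Inhba, Fstl3, Chrna3, Chrnb4 and Cited1 had moved back as well. Inhba, a subunit of activin A, was at 4.22, 6.76 and 11.1 CPM on long photoperiod and at 7.11, 15.0, 15.0, 8.14 and 23.2 CPM in refractory animals. The groups overlapped at their edges and 3 refractory animals lay above the long photoperiod range, far below the short-day means of 69.8 and 63.2 CPM (-2.28, edgeR adjusted p = 0.00101). Inhba was at 8.47 to 66.5 CPM in interbout animals and already at 6.89 to 27.9 CPM in torpor animals. Fstl3, which binds activin, was 0.78 below the short-day level on the log2 scale (-0.78, edgeR adjusted p = 0.00108) and -0.11 from long photoperiod. Chrna3 and Chrnb4, 2 nicotinic receptor subunits encoded side by side in mammals, had refractory means of 38.4 and 20.0 CPM, long photoperiod means of 25.2 and 10.6 CPM and pre-hibernation means of 191 and 71.7 CPM. Cited1, a transcriptional coregulator, had the same course, at 205 ± 35.3 CPM on long photoperiod (n = 6), 364 ± 132 CPM in refractory animals (n = 5) and 1132 and 1601 CPM on short days. With 1 animal left out, log2 differences from long photoperiod were 0.64 to 1.09 for Inhba and 0.39 to 0.83 for Chrna3. They were 0.68 to 1.09 for Chrnb4 and 0.66 to 0.97 for Cited1. None passed, and some of the short-day rise may be left.

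Among the largest short-day rises, Dnase2b, Tcerg1l and Tesc had moved back too. Dnase2b, a lysosomal nuclease, was at 1.15 to 3.73 CPM in refractory animals and 2.07 to 5.48 CPM on long photoperiod, against short-day means of 22.9 and 32.3 CPM. Refractory 4 was at 12.1 CPM. Tcerg1l was at 2.44, 1.88, 6.35, 1.64 and 1.64 CPM, with refractory 3 far above the others, and its move from the short-day level (-2.77, edgeR adjusted p = 0.0354) did not pass without refractory 1, 2, 5 or 6 (highest 0.117). Tesc, a calcium-binding protein, had a refractory mean of 27.4 CPM against 12.6 CPM on long photoperiod and 90.5 CPM in pre-hibernation. Its move from the short-day level did not pass without refractory 1 (edgeR adjusted p = 0.0515). With 1 animal left out, Tesc was 0.88 to 1.29 from long photoperiod on the log2 scale, which did not pass.

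**Figure D5:**
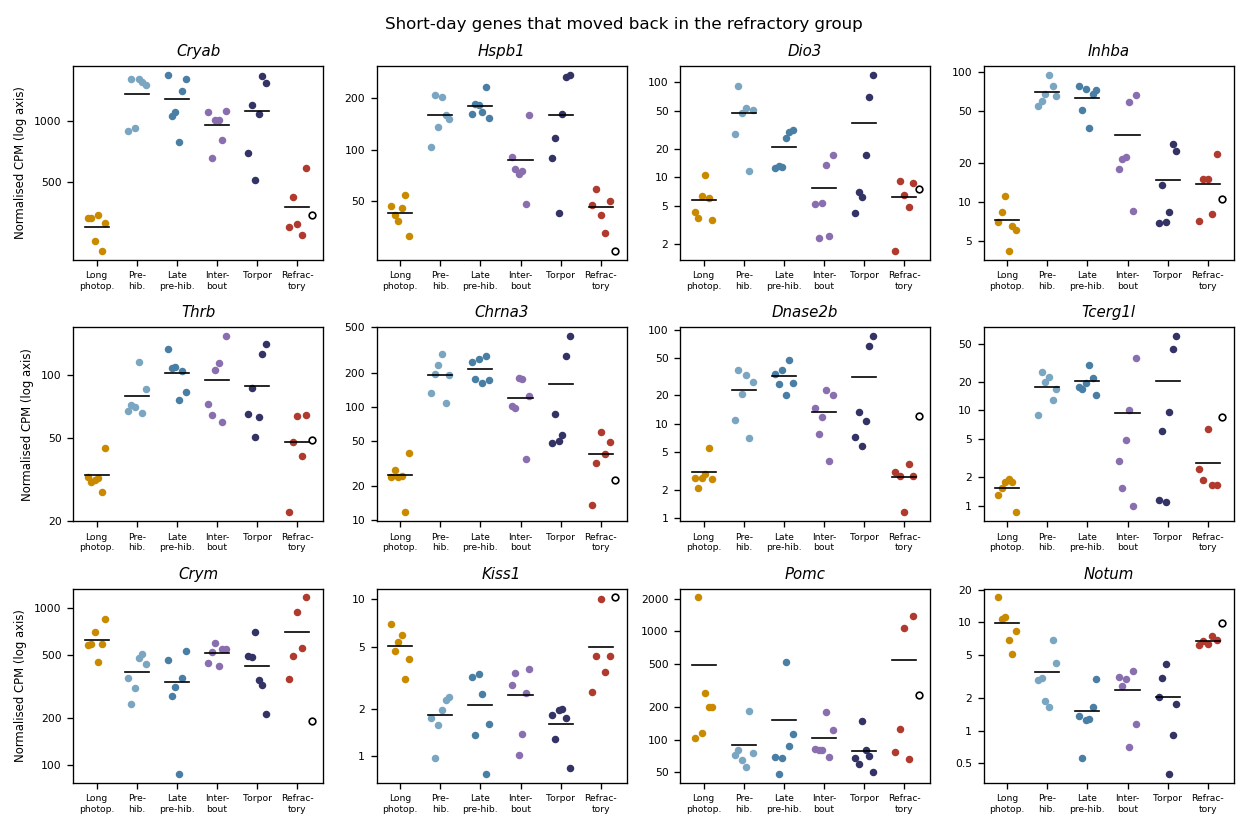
Normalised CPM (log axis) of 12 short-day genes that had moved back in refractory animals; points are animals in 6 groups, lines are group means, and the open circle is refractory 4, which enters no mean. Cryab, Hspb1, Dio3 and Inhba are high on short days and close to the long photoperiod range in refractory animals, and the high refractory points of Pomc and Kiss1 belong to 1 or 2 animals.

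The short-day falls of Kiss1 and Pomc had moved back. Kiss1, whose peptide drives the reproductive axis, was at 3.11, 5.05 and 7.00 CPM on long photoperiod and at 2.56, 4.34, 10.1, 3.46 and 4.36 CPM in refractory animals, with refractory 3 alone above the range. Its rise from the short-day level (1.33, edgeR adjusted p = 0.00603) passed with refractory 4, which was at 10.3 CPM (0.000919), and not without refractory 3 (0.90, edgeR adjusted p = 0.0527). Of the 5 refractory animals 4 lay above the highest short-day animal, at 3.34 CPM. Pomc, the precursor of melanocortins in hypothalamus and pituitary, was at 77.0, 126, 1086, 67.2 and 1395 CPM in refractory animals and at 104, 202 and 2059 CPM on long photoperiod. Its rise from the short-day level (2.24, edgeR adjusted p = 0.0359) did not pass without refractory 3 or 6 (highest 0.161). The summed level of 4 pituitary markers (Gh1, Pou1f1, Tshb and Cga) was 4.07 to 695 CPM in the 5 refractory animals and 21.2 to 358 CPM on long photoperiod, and its part in these values was not tested.

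Other falls had moved back only to the lower part of the long photoperiod range, or in most refractory animals to below it for Gpr37l1. Notum, which inactivates Wnt proteins, was at 6.21, 6.69, 6.26, 7.46 and 6.84 CPM in refractory animals and at 5.12, 9.48 and 17.0 CPM on long photoperiod, against short-day means of 3.44 and 1.53 CPM. Gpr37l1, a receptor of glial cells, was at 698, 731, 598, 851 and 586 CPM and at 822, 1110 and 1261 CPM, with refractory 5 alone above long photoperiod 5. Its rise from the short-day level passed (0.74, edgeR adjusted p = 0.00251), and 47.1% of the short-day fall was left, with an interval of -1.01 to -0.31 (edgeR adjusted p = 0.109). It passed against long photoperiod when long photoperiod 5 was left out. Fam102a and Lmcd1 likewise had intervals below 0, at -1.19 to -0.13 and -0.95 to -0.07.

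Few members of the gene lists passed. Of the 36 gene lists examined, 8 had a member that passed, and 8 of their 730 tested genes passed (1.10%, against 0.228% of all genes), among them Dio2, Lrat, Rarb, Lpl, Ntsr2, Trpv4 and Fzd2. The list medians lay between -0.16 and 0.42, with 0.01 over all genes. The oligodendrocyte and neuropeptide lists had medians of 0.42, the endothelial list 0.39 and the microglia list 0.36, with 0 of 11, 0 of 18, 0 of 11 and 0 of 16 tested members passing. The summed level of 5 neuron markers was 178 to 233 CPM on long photoperiod and 198 to 309 CPM in refractory animals. With the neuron and oligodendrocyte marker lists as covariates 73 genes passed, 35 of the 41 among them.

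The genes fixed for tanycyte identity and fuel use that follow showed no difference from long photoperiod that passed, unlike Dio2 among the tanycyte markers, Lpl and Slc2a10. Rax, a tanycyte transcription factor, was at 127 ± 40.9 CPM on long photoperiod (n = 6) and 124 ± 45.5 CPM in refractory animals (n = 5), and Vim, an intermediate filament of these cells, at 1169 ± 48.9 and 1116 ± 137 CPM. Their differences were -0.03 (interval -0.64 to 0.58) and -0.07 (interval -0.32 to 0.19). Gpr50, another tanycyte marker, was less even, at -1.06 to -0.49 with 1 animal left out, which did not pass. Against the short-day level Gpr50 was lower (-2.14 to -1.60 with 1 animal left out) and passed in the main fit. That call was lost without refractory 1 or 2 (highest edgeR adjusted p = 0.108). Slc2a1, the main glucose transporter of glia and vessels, differed by -0.15 (interval -0.34 to 0.04), and the lactate transporter Slc16a1 by -0.13 (interval -0.39 to 0.12). Cpt1a, which admits fatty acids to mitochondria, and Pdk4, which turns cells from glucose, differed by -0.29 and -0.19, and the cold-induced Rbm3 by 0.09; none passed. Rax, Rbm3 and Nes change sign under other settings.

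Over the means of all 6 groups, Dio2 was followed most closely, among 9695 genes compared, by Dapp1 (Pearson r of log2 CPM 0.989), Ackr3 (0.987), B3galnt1 (0.976), Lpin1 (0.962) and Pdlim3 (0.960). These are correlations over 6 means, a description. None of the 5 passed between refractory and long photoperiod animals with 5 and 6 animals. Lpin1, which takes part in fat synthesis, was at 80.5 ± 13.3 CPM on long photoperiod (n = 6) and 56.3 ± 6.77 CPM in refractory animals (n = 5; -0.52, edgeR adjusted p = 0.0628), and it passed with refractory 4 (0.0263) and without long photoperiod 5 (0.00785).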

How the data were processed

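The starting values were the authors' deposited raw counts of each gene. Per the file headers, featureCounts 2.0.1 counted read pairs over exons, without regard to strand, using RefSeq gene models for the assembly BCM_Maur_2.0. No source used here gives the aligner's version. Genes lie on unplaced scaffolds, so no coordinates are given. In total 5.16 to 28.54 M counts per library were available for the groups compared.

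The 35 libraries other than refractory 4 passed through filterByExpr and TMM scaling and entered a single robust quasi-likelihood model in edgeR 4.0.16 (R 4.3.3). A gene passed at a Benjamini-Hochberg adjusted p below 0.05 over 17996 genes. CPM use the TMM factors, and intervals are 95%. The members and the 36 gene lists were chosen with earlier results of these data known.

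Named genes are the 12 largest rises and falls that passed, provided that they had an informative name and averaged 1 log2 CPM or more, up to 8 per class of return, list members with the smallest p and a fixed set. Other genes that passed, Chrna3, Chrnb4, Cited1, Hr, Thra, Slco1c1, Rbp4, Aldh1a3, Crabp1, Rdh10, Fstl3, Hspb2, Hspb6, Hspb7 and Hsf2 were named after their values were seen. Alternatives were refractory 4 kept, RLE factors, DESeq2 1.42.0, limma 3.58.1 voom, other filters, the groups alone, a replicate block, marker covariates, subsets of long photoperiod animals and leaving out each animal. Tested on simulated data, the workflow recovered 62.6% of 2-fold and 91% of 4-fold changes among 17842 genes, with 1.92% false calls. These counts were drawn from the model's own spread, without outlying animals or shifts in cell mixture. The rates therefore need not hold for the real animals. Some genes are not reported here.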

Additional observations from a re-analysis of the deposited data

Results flagged for a closer look

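In the groups of 6 long photoperiod or 5 refractory animals, the highest or the lowest animal was far from the others for 15 of 170 gene and group pairs examined. In these 15 the gap to the next animal was 0.626 to 0.913 of the group's range. The nominal rate of the rule is about 1 in 20. The pairs share animals and many genes were chosen for their differences, so that rate need not hold for them. Long photoperiod 5 was far below the others for Hes7 (2.88 CPM, next 6.53), Plekhb1 (368 CPM, next 522), Pla2g7 (85.6 CPM, next 135) and LOC101836237 (0.365 CPM, next 3.58), and far above them for Dnase2b (5.48 CPM, next 2.94). Long photoperiod 1 was far above the others for Sik1 (33.6 CPM, next 11.7), Lrrc70 (9.11 CPM, next 5.35) and Irs2 (39.0 CPM, next 26.4). Long photoperiod 6 was far above for Lpl (186 CPM, next 133) and Thrb (44.7 CPM, next 32.5), and long photoperiod 2 for Pomc (2059 CPM, next 273). Refractory 3 was far above the others for Tcerg1l (6.35 CPM, next 2.44), Kiss1 (10.1 CPM, next 4.36) and Crabp1 (34.7 CPM, next 22.9), and refractory 1 for Rbm3 (278 CPM, next 224).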

How the results depend on the processing

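The direction of all 41 genes was kept with refractory 4 and against long photoperiod 1 to 3 or 4 to 6 alone. These fits share animals with the fit that chose the genes, so the kept direction is a description and no independent check. How many genes passed was not stable. For refractory against long photoperiod (41) DESeq2 gave 107 genes, voom 167, the groups alone 85, the fit without the 3 libraries rich in ribosomal RNA (refractory 4, pre-hibernation 5 and interbout 6) 95, marker covariates 73, long photoperiod 4 to 6 alone 6, and leaving out 1 animal 14 to 109. Of the 41 genes 40 passed with DESeq2 and 39 with voom. Short days against long photoperiod (1357) gave 835 with refractory 4, 836 with it and with ribosomal and mitochondrial genes removed, 3452 with voom, 2100 without the 3 libraries, 470 and 575 with the subsets of long photoperiod animals, and 977 to 1404 with 1 animal left out. Refractory against short days (882) gave 1818 with refractory 4 and 1810 with those genes removed too, 1423 with DESeq2, 2866 with voom, 551 without a filter, 1544 without the 3 libraries, and 278 to 1273 with 1 animal left out.

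Genes not returned (31) numbered 70 with DESeq2, 114 with voom, 73 without the 3 libraries, 58 with covariates, 5 with long photoperiod 4 to 6 and 13 to 78 with 1 animal left out. Those part way (3) numbered 1 with refractory 4 (also with ribosomal and mitochondrial genes removed) and without a filter, 9 with DESeq2, 14 with voom, 8 without the 3 libraries, 7 with covariates, 0 with long photoperiod 4 to 6 and 0 to 6 with 1 animal left out. Genes moved back (478) numbered 1500 with voom, 793 without the 3 libraries, 183 and 258 with the long photoperiod subsets and 215 to 541 with 1 animal left out. Unresolved genes (845) numbered 411 with refractory 4, 408 with those genes removed too, 1824 with voom, 252 and 312 with the subsets and 558 to 1167 with 1 animal left out. Past the start lay 1 gene with DESeq2 and 1 without the 3 libraries. List members that passed (8) numbered 19 with DESeq2, 20 with voom, 17 in the groups alone, 15 without the 3 libraries, 14 with covariates, 3 with long photoperiod 4 to 6 and 4 to 17 with 1 animal left out. The cause of these differences was not tested. The subsets also hold fewer animals, and the part of that in their counts was not tested either.

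Differences from long photoperiod near 0 changed sign, none of them passing. Dnase2b (-0.17) was 0.16 with refractory 4, 0.16 with ribosomal and mitochondrial genes removed too, 0.15 against long photoperiod 1 to 3 and -0.32 to 0.07 with 1 animal left out. Pomc (0.16) was -0.05 with voom, -0.01 with covariates, -0.46 against long photoperiod 1 to 3 and -0.54 to 1.62 with 1 animal left out. Dio3 (0.08) was -0.16 against long photoperiod 4 to 6 and -0.09 to 0.34 with 1 animal left out. Rax (-0.03) was 0.09 with covariates, 0.38 against long photoperiod 4 to 6 and -0.25 to 0.11 with 1 animal left out. With refractory 4, and with the ribosomal and mitochondrial genes removed too, Nes (-0.18) was 0.22 and 0.21, Crym (0.16) -0.04 and -0.03, Kiss1 (-0.03) 0.15 and 0.15, Rbm3 (0.09) -0.08 and -0.08, and Fstl3 (-0.11) 0.12 and 0.11. Against long photoperiod 4 to 6 Kiss1 was 0.16 and Fstl3 0.00. With 1 animal left out Crym was -0.10 to 0.33 and Kiss1 -0.46 to 0.14.

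Replicate numbers are shared between groups, but the labels do not pair them, and the deviations of animals with the same number correlated at 0.22, -0.32, 0.04, 0.17 and 0.36, each matching another number better. With the replicate block 46 genes passed for refractory against long photoperiod (37 of the 41), 1248 for short days against long photoperiod, 1014 for refractory against short days and 8 list members; 34 genes had not returned, 1 was part way, 492 had moved back and 721 were unresolved. With 5 and 6 animals, differences of 2-fold can be missed, and a gene that did not pass need not be at the long photoperiod level.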
